A study of Mus musculus with 8 samples.

Results

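The cathepsins are lysosomal proteases, and the 10 members described here were chosen by gene symbol: Ctsa, Ctsb, Ctsc, Ctsd, Ctsf, Ctsh, Ctsk, Ctsl, Ctss and Ctsz. All 10 were found among the 16505 genes of the deposited expression table, and all 10 passed the filter on low values that 13797 genes passed. The table holds polyA RNA-seq of epididymal white adipose tissue, the fat pad along the epididymis, from C57BL/6 mice. The 4 wild-type (WT) libraries and the 4 miR-181 double-knockout (DKO) libraries were all made after 12 weeks of high-fat feeding, and none came from mice on another diet. The labels give no age, do not name the deleted miR-181 loci and do not say whether the deletion was limited to a cell type. The table has no row for a miR-181 gene, and the loss of the microRNAs could not be checked in it. The labels do not say whether littermates, cages or pooled animals were used, so the tests below measure the spread between these libraries.

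Cathepsins are made as inactive precursors, carried to the lysosome largely by mannose 6-phosphate receptors, and cleaved to active enzymes in its acid interior. Most are cysteine proteases, Ctsd is an aspartic protease, and Ctsa is a serine carboxypeptidase. Macrophages hold large amounts of them for the breakdown of engulfed cells, lipid-laden debris and antigens, and some are also secreted and cut collagen and elastin in the matrix around adipocytes. Cystatins block the cysteine cathepsins outside the lysosome and in the cytosol.

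The miR-181 family is read through a shared seed, bases 2 to 8 of the mature strand, in capitals here, which is what a target transcript would have to pair with. The RefSeq table (GRCm38.p6) holds 6 loci, which give 4 different 5p strands: Mir181a-1 and Mir181b-1 on chromosome 1, Mir181a-2 and Mir181b-2 on chromosome 2, and Mir181c and Mir181d on chromosome 8.
miR-181a-5p: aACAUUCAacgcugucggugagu
miR-181b-5p: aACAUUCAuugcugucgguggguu
miR-181c-5p: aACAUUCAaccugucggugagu
miR-181d-5p: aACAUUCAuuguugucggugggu
All carry the seed ACAUUCA. Its complement, TGAATGT, was in the longest annotated 3′ UTR (GENCODE M21) of 0 of the 10 cathepsins, and in 18.5% of the 12851 tested genes with an annotated 3′ UTR. The shorter match GAATGT was in 2 of the 10 members, Ctsb and Ctsc, and in 36.5% of those genes. These shares take no account of length. The median 3′ UTR was 1186 bases over the tested genes, and the members ran from 218 bases (Ctss) to 4761 (Ctsl). The windows around the 3 matches to GAATGT in members are given in DNA letters with the match in capitals.
Ctsb: tagtttaacaagGAATGTctgtgccaataa
Ctsc, first match: atcaccactgtgGAATGTgaaccaccagaa
Ctsc, next match: agtggagtggtaGAATGTatattgcattga
In the next Ctsc match GAATGT is followed by an a, a longer form whose share over the tested genes was not counted. A match describes these letters only, and no binding was measured.

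Of the 10 cathepsins, 9 fell and 1, Ctsf, rose in the DKO libraries (limma, adjusted p under 0.05 over all 13797 tested genes). Changes are given as DKO minus WT in log2 CPM, read counts scaled to the size of the library. Of all tested genes, 38.8% passed in either direction, 16.1% as lower and 22.7% as higher. In all 10 members the 4 WT and 4 DKO values did not overlap, against 37.4% of all tested genes. The median change of the 10 was −1.80, beside 0.18 over all tested genes. Relative to that shift the median of the 10 was −1.98. Because this is bulk tissue, fewer cells of a type and less RNA per cell cannot be told apart in any of these values. Together the 10 genes supplied 1.82%, 2.004%, 1.91% and 2.38% of the reads of the WT libraries and 0.645%, 0.579%, 0.445% and 0.406% of those of the DKO libraries. Their 95% Wilson intervals, which cover counting error only, reach at most 0.0130 percentage points to either side.

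**Figure D1:**
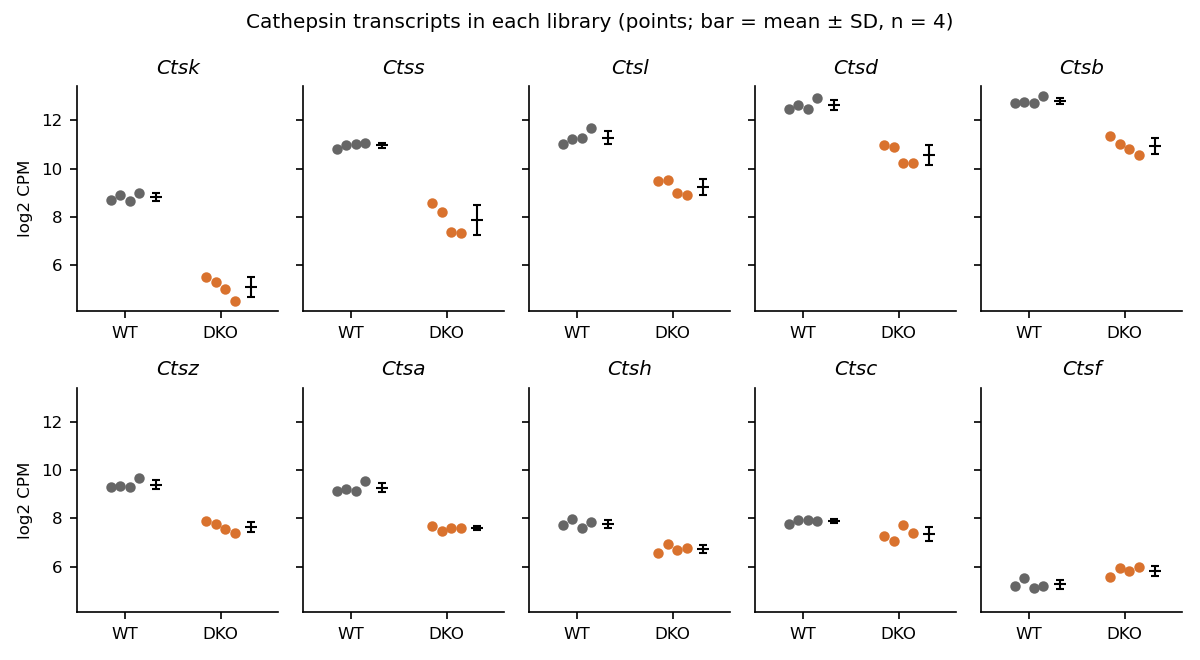
Log2 CPM of the 10 cathepsins in each of the 4 WT and 4 DKO libraries; each point is a library and the bars beside them are the group mean ± SD (n = 4). The groups are separated for every member, from a gap of 3.15 for Ctsk to 0.017 for Ctsf, the only member whose DKO values lie above the WT values.

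The largest falls were those of Ctsk and Ctss, neighbouring genes that encode cysteine proteases. Ctsk, best known as the collagen-degrading enzyme of osteoclasts and also made by activated fibroblasts and macrophages, had log2 CPM of 8.68, 8.92, 8.65 and 9.002 in WT libraries 1 to 4 and 5.49, 5.31, 5.004 and 4.52 in DKO libraries 1 to 4. Every DKO library lay at least 3.15 below every WT library. The fall was −3.73 ± 0.20 (SE, n = 4 and 4; limma adjusted p = 1.17e-05), or 13.3-fold, and it ranked 34 from the lowest among the 13797 tested genes. Ctss, the protease of antigen-presenting cells that trims the invariant chain, read 10.83, 10.96, 11.01 and 11.04 in WT and 8.56, 8.19, 7.35 and 7.32 in DKO. The WT values were close together (SD 0.092) and the DKO values were not (SD 0.62), with DKO libraries 1 and 2 above 3 and 4. The fall was 8.57-fold (−3.10 ± 0.27, limma adjusted p = 7.40e-05).

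Ctsl, Ctsd and Ctsb, enzymes of bulk protein breakdown in the lysosome, fell by 3.64-fold (Ctsb) to 4.19-fold (Ctsl). Ctsl, a cysteine endopeptidase, read 11.00, 11.22, 11.25 and 11.67 in WT and 9.47, 9.53, 8.98 and 8.90 in DKO. It fell by 2.07 ± 0.21 (SE; limma adjusted p = 0.000152). Ctsd, the main aspartic protease of the lysosome, read 12.45, 12.66, 12.48 and 12.91 in WT and 10.96, 10.90, 10.23 and 10.22 in DKO. Its change was −2.05 ± 0.26 (limma adjusted p = 0.000422). Ctsb, a cysteine protease that can also remove dipeptides from protein ends, read 12.70, 12.76, 12.73 and 13.00 in WT and 11.34, 11.03, 10.81 and 10.56 in DKO. Its change was −1.86 ± 0.24 (limma adjusted p = 0.000493). In each of these 3 genes, DKO libraries 1 and 2 lay above DKO libraries 3 and 4, and WT library 4 was the highest of all.

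The exopeptidases came next. Ctsz, a carboxypeptidase, read 9.31, 9.33, 9.28 and 9.65 in WT and 7.88, 7.76, 7.58 and 7.40 in DKO, a 3.34-fold fall (−1.74 ± 0.14, limma adjusted p = 4.76e-05). Ctsa, a carboxypeptidase that also protects beta-galactosidase and neuraminidase in the lysosome, read 9.14, 9.23, 9.15 and 9.55 in WT and 7.67, 7.47, 7.59 and 7.59 in DKO. Its DKO values had the smallest SD of any member, 0.082, and its fall was 3.22-fold (limma adjusted p = 2.97e-05). Ctsh, an aminopeptidase, ranged from 7.60 to 7.97 in WT and from 6.58 to 6.95 in DKO, a 2.06-fold fall (limma adjusted p = 0.000248).

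Ctsc and Ctsf had the smallest changes and nearly touching groups. Ctsc, also called dipeptidyl peptidase I, activates some granule serine proteases of mast cells, neutrophils and cytotoxic lymphocytes. It read 7.76, 7.93, 7.94 and 7.87 in WT and 7.25, 7.05, 7.72 and 7.40 in DKO. DKO library 3 came within 0.038 of the lowest WT library, and the fall was −0.52 ± 0.14 (limma adjusted p = 0.0181). Without WT library 2 and DKO libraries 2 and 4, in which epididymis markers supplied over 1% of reads, the change was −0.37 and did not pass (limma adjusted p = 0.165). Ctsf, a widely made cysteine protease with a long propeptide, read 5.20, 5.54, 5.12 and 5.18 in WT and 5.55, 5.96, 5.81 and 5.98 in DKO. It rose by 0.56 ± 0.14 (limma adjusted p = 0.0103), and WT library 2 lay 0.017 under the lowest DKO library. Ctsf also had the fewest reads of the family, 150 in its shallowest library, while Ctsb reached 161139 in its deepest.

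The libraries also differed in depth and in ribosomal RNA content, and both differed in part with the group. Total counts ran from 4081597 to 15410736 in WT and from 3736881 to 76838584 in DKO. Reads from the ribosomal RNA rows Rn18s and Rn28s1 made up over 1% in WT libraries 1, 3 and 4 and DKO library 1, and under 1% in WT library 2 and DKO libraries 2, 3 and 4. Among libraries over 1% the Ctsk change was −3.28, and among those under 1% it was −3.98. For Ctss these values were −2.39 and −3.33, for Ctsl −1.84 and −2.09, for Ctsd −1.66 and −2.21, and for Ctsb −1.47 and −1.96. For Ctsz they were −1.53 and −1.75, for Ctsa −1.61 and −1.68, for Ctsh −1.15 and −1.18, and for Ctsc −0.60 and −0.54. Ctsf was 0.39 higher in DKO among the first and 0.38 among the second. All 10 members therefore kept their direction within each class, but each class has a single library on 1 side, so no within-class value has a test. DKO library 1 was the highest DKO library for 6 of the 10 members and DKO library 4 the lowest for 6, and WT library 4 was the highest WT library for 7.

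**Figure D2:**
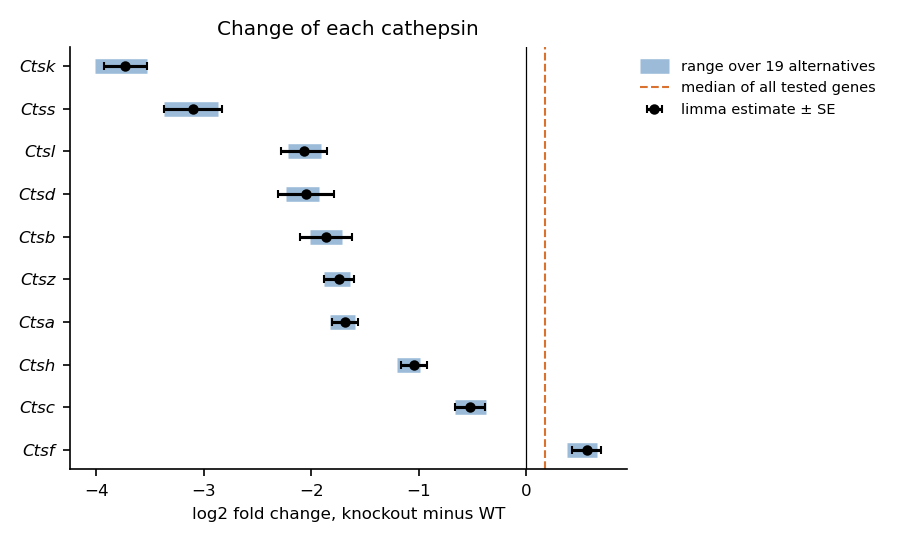
DKO minus WT change in log2 CPM for each cathepsin, ordered by size; points with bars are limma estimates ± SE, pale bars are the range over 19 alternative fits, and the dashed line is the median change of all tested genes, 0.18. The 9 members left of 0 run from −3.73 for Ctsk to −0.52 for Ctsc, and Ctsf lies to the right at 0.56.

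Whether the members changed by different amounts was tested on their log2 differences within each library, which do not depend on how libraries are scaled. All 45 pairs were tested with a two-sided exact permutation test over the 8 libraries, whose smallest possible p is 0.0286. After adjustment over the pairs, 34 passed. Each of these was at that smallest p, so whether a pair passed depends on how many other pairs reached it. Ctsk fell further than 8 other members but its difference from Ctss, −0.63, did not pass (exact permutation test, adjusted p = 0.0695). Ctss fell further than Ctsl by 1.03 (exact permutation test, adjusted p = 0.0378). Among Ctsl, Ctsd, Ctsb, Ctsz and Ctsa, 9 of 10 pairs did not pass, and the exception was Ctsd against Ctsz, with a difference in change of −0.31. The smallest difference was 0.019, between Ctsd and Ctsl (exact permutation test, adjusted p = 0.800). Ctsa fell further than Ctsh (difference −0.64), which passed. Ctsc fell less than Ctsh by 0.53, which did not (exact permutation test, adjusted p = 0.0695). Ctsc minus Ctsf differed by −1.08, which passed.

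Macrophage markers fell with the family. Of 15 markers 14 were lower in DKO, beside 16.1% of all tested genes, with a median change of −2.38. The exception, Mertk, named after its value was seen, did not pass. Their summed level was 8219 to 9512 CPM in WT and 1586 to 2246 CPM in DKO, and none of the 15 was at 0 in a library. Adgre1, the gene of the macrophage surface protein F4/80, fell by 2.90 ± 0.16 (SE), and Tyrobp, an adaptor of myeloid receptors, by 2.78. Cd68, a lysosomal membrane protein of macrophages that served as an alternative reference, had a change of −3.24. The part of macrophage content in the cathepsin falls was not tested, but each cathepsin can be set beside these markers within each library.

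Relative to the mean log2 level of the 15 markers, the Ctsk change was −1.60 and the Ctss change −0.97, and both passed (two-sided exact permutation test, adjusted p = 0.0408 over the 10 members). Ctsk was 0.70 to 0.98 above the marker mean in the WT libraries, and its level minus that mean was −1.07 to −0.52 in the DKO libraries. Ctsl and Ctsd changed by 0.06 and 0.08 relative to the markers, and Ctsb by 0.26. None of these 3 passed (exact permutation test, p = 0.714, 0.714 and 0.0571; Ctsb adjusted p = 0.0714). Ctsz, Ctsa, Ctsh, Ctsc and Ctsf all gained relative to the markers, by 0.39, 0.44, 1.08, 1.61 and 2.69, and each passed. Every member that passed was at the smallest possible p of the test, so its adjusted p depends on how many members reached it. With limma on the same differences, Ctsz did not pass without WT library 1, 2 or 3 or DKO library 2 (adjusted p from 0.0516 to 0.0733). The result for Ctss depends on which marker is the reference: it was −0.20 against Adgre1 alone (exact permutation test, adjusted p = 0.257) and 0.14 against Cd68 alone (adjusted p = 0.400). Ctsk was lower against either marker, by −0.83 and −0.49, and passed. The results for Ctsb, Ctsd and Ctsl depend on the reference too. They did not pass against the mean of the 15 markers, but were higher against either marker alone and passed. Ctsb, for example, was higher by 1.04 against Adgre1 and by 1.37 against Cd68 (exact permutation test, adjusted p = 0.0317). Adgre1 and Cd68 fell further (−2.90 and −3.24) than the median of the markers (−2.38). No marker that fell less than that median was used alone.

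**Figure D3:**
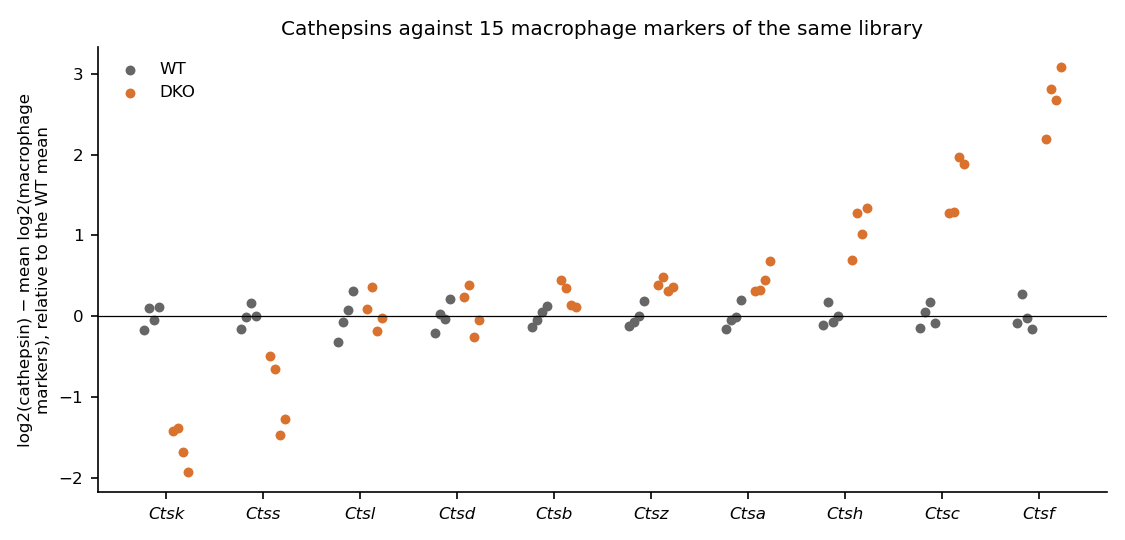
Log2 level of each cathepsin minus the mean log2 level of 15 macrophage markers in the same library, relative to the WT mean; each point is a library, gray for WT and orange for DKO. The DKO points of Ctsk and Ctss lie below the WT points, those of Ctsl and Ctsd among them, and those of Ctsh, Ctsc and Ctsf furthest above.

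The make-up of the cathepsin transcripts differed between the groups. Levels were compared between genes per kilobase of the longest annotated coding transcript (GENCODE M21). The summed level of the 10 was 7546 ± 866 CPM per kilobase in WT and 1805 ± 411 in DKO (SD, n = 4 each). Ctsd supplied the largest share in both groups, 39.5% ± 1.5 in WT and 40.6% ± 2.7 in DKO, followed in WT by Ctsb at 20.0% ± 0.57 and Ctss at 19.6% ± 1.5, whose ranges overlapped. Without division by length Ctsb was the largest in both groups, at 35.3% in WT and 38.5% in DKO, against 31.3% and 30.0% for Ctsd. In DKO, Ctsb supplied 23.4% ± 1.6 and Ctss 9.83% ± 2.0. The Ctsk share was 3.96% ± 0.22 in WT and 1.27% ± 0.14 in DKO. The shares of Ctsh and Ctsc, which fell less, and of Ctsf, which rose, were larger in DKO: Ctsh had 1.82% in WT and 3.81% in DKO, Ctsc 0.976% and 3.04%, and Ctsf 0.260% and 1.68%. The place of Ctsl in this order depends on its transcript. Its share was 5.41% in WT and 5.47% in DKO with a transcript of 6168 bases, and 14.6% in both with the first-listed one of 1971 bases.

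**Figure D4:**
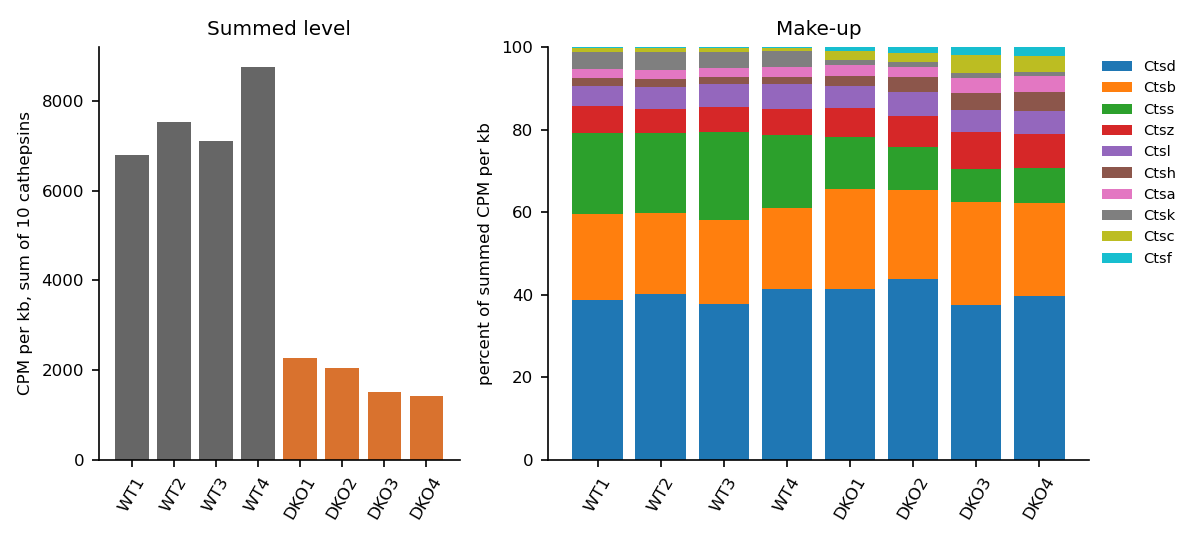
Left, summed CPM per kilobase of the 10 cathepsins in each library; right, the share of each member in that sum, in percent, as stacked bars. Ctsd takes 37.8% to 41.3% in the WT libraries and 37.5% to 43.8% in the DKO libraries, while the Ctss share runs from 17.7% to 21.4% in WT and from 8.0% to 12.4% in DKO.

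Counted with epididymal genes, inhibitors passed in no greater share than all tested genes. Of 18 listed cystatins, stefins and related inhibitors, 9 were in the table and 7 were tested. Of these, 1 passed as lower and 1 as higher, beside 16.1% and 22.7% of all tested genes. Some of the 7, Cst12 among them, are also on the list of epididymis markers. The 1 lower and the 1 higher gene are not on that list, so the share without the epididymal genes is larger. Cstb, the cystatin of the cytosol, had a change of −1.90 ± 0.19 (limma adjusted p = 0.000121). Cst3, the secreted cystatin C, had a change of −0.13 ± 0.15 and did not pass (limma adjusted p = 0.514). Ctla2a, whose product resembles a cathepsin propeptide, rose by 1.20 ± 0.36 (limma adjusted p = 0.0281), but did not pass without WT library 1, 2 or 4 or DKO library 3 (adjusted p = 0.0618, 0.0515, 0.0768 and 0.0618). With a term for ribosomal RNA class its change was 1.06 and did not pass either (adjusted p = 0.0888). Cst12, an epididymal cystatin, was at 7.22 to 7.63 log2 CPM in WT library 2 and DKO libraries 2 and 4 and between −3.03 and −1.32 in the other 5. Per kilobase, Cst3 and Cstb together stood at 0.295, 0.350, 0.282 and 0.285 of the 8 cysteine cathepsins in the WT libraries and at 0.656, 0.860, 1.22 and 1.11 in the DKO libraries, with no overlap. The level of this ratio depends on the lengths: without division by length it was 0.0704 to 0.0913 in WT and 0.160 to 0.299 in DKO. With the first-listed transcripts it was 0.231 to 0.293 in WT and 0.545 to 1.004 in DKO. The per-kilobase ratio of Cst3 to Cstb was 1.84 to 2.27 in WT and 5.19 to 10.4 in DKO.

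Genes that activate cathepsins or carry them to the lysosome mostly fell as well. Of 10 tested, 6 passed as lower and 1 as higher, beside 16.1% and 22.7% of all tested genes. Their median change was −0.63, beside −1.80 for the cathepsins. Without WT library 3 or DKO library 1, 2 passed as higher. Lgmn, the asparaginyl endopeptidase legumain, which cleaves cathepsin precursors, fell by 2.34 ± 0.13. The mannose 6-phosphate receptors Igf2r and M6pr changed by −1.55 ± 0.15 and −0.68 ± 0.09, and Lrp1, an endocytic receptor, by −1.08 ± 0.16. Sort1, a sorting receptor that takes some lysosomal proteins by a route other than mannose 6-phosphate, was the exception and rose by 1.23 ± 0.22 (limma adjusted p = 0.0027). It is named here after its value was seen.

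**Figure D5:**
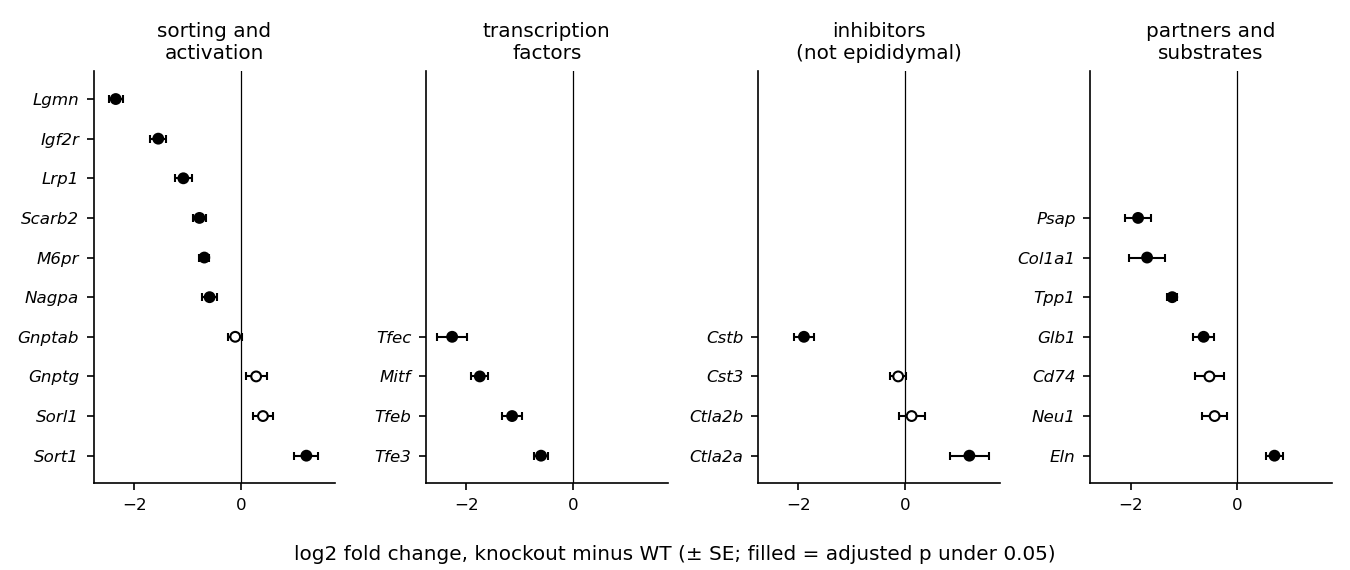
DKO minus WT change in log2 CPM for 4 groups of genes of the cathepsin pathway; points are limma estimates ± SE, filled where the adjusted p was under 0.05 and open where it was not. All 4 transcription factors lie below 0, and Sort1, Ctla2a and Eln are the filled points above 0. Inhibitors that are also epididymis markers are not drawn.

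The transcription factors of the MiT family, which bind a CACGTG-type element in lysosomal gene promoters, were lower in DKO in 4 of 4 cases. Over all tested genes 16.1% passed as lower. Tfec, a form found mainly in myeloid cells, had a change of −2.27 ± 0.29 and Mitf of −1.75 ± 0.16, and Tfeb and Tfe3, which are widely made, changed by −1.14 ± 0.18 and −0.60 ± 0.13. The RefSeq table (GRCm38.p6) holds promoters, from 250 bases before to 50 after a start, of 8 of the 10 members, and none of Ctsb or Ctsh. Searched on both strands, CACGTG was in those of 4 members (Ctsa, Ctsd, Ctsf and Ctsl) in 7.15% of all 32851 promoters, and in those of 11.4% of the 10396 tested genes with an entry, counted per gene as for the members. The longer form TCACGTGA, which contains CACGTG, was in those of Ctsa and Ctsd, in 0.974% of all promoters and in those of 2.01% of tested genes. GAGGAAGT, a core bound by the myeloid factor PU.1, was in those of Ctsc and Ctss, in 3.20% of all promoters and in those of 3.82% of tested genes. Promoters of Ctsa and Ctsd are shown for the longer element, that of Ctsf because it holds CACGTG although the gene rose, and that of Ctss for its other element at the start. Ctsa has another promoter entry, from a different start, which is not shown and holds no match to any of these elements. Capitals mark the matches.
Ctsa, chr2:164833523-164833822, plus strand: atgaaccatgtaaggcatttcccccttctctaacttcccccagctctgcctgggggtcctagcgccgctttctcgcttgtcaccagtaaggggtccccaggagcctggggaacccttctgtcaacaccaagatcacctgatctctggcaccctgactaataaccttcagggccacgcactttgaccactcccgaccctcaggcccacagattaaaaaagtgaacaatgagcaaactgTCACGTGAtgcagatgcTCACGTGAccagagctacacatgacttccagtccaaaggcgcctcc
Ctsd, chr7:142387778-142388077, minus strand: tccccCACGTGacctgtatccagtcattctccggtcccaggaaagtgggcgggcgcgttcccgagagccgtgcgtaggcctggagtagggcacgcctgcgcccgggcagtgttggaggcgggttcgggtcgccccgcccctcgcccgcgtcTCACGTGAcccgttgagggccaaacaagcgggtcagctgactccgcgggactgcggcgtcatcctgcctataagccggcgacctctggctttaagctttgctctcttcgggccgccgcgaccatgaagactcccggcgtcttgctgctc
Ctsf, chr19:4854915-4855214, plus strand: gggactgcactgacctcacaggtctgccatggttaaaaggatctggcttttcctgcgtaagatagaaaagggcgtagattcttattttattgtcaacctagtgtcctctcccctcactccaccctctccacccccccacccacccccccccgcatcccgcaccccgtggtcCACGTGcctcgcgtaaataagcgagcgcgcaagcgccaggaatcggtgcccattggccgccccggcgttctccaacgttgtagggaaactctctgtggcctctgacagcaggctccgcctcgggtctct
Ctss, chr3:95526536-95526835, plus strand: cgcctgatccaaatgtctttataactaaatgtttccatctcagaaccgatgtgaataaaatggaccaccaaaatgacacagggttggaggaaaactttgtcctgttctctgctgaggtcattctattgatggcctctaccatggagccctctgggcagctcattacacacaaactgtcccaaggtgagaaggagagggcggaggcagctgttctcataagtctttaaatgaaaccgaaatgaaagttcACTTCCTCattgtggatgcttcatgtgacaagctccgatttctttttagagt
The Ctsa matches to TCACGTGA begin 13 bases before the start and at base 5 after it, and that of Ctsd begins 99 bases before. The Ctsf match begins 79 bases before the start. In Ctss the reverse complement of GAGGAAGT begins 2 bases before the start. CACGTG was thus present at members that fell and at the member that rose, and not in these windows of Ctsk and Ctss, which says nothing about the binding of a factor.

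Of 7 tested partners and substrates of the cathepsins, 4 fell and 1 rose, beside 16.1% and 22.7% of all tested genes. With voom on whole reads 5 fell and 0 rose. Psap, the precursor of the saposins that Ctsd cleaves, fell by 1.86 ± 0.24, a change close to that of Ctsb. Tpp1, a lysosomal tripeptidyl peptidase, had a change of −1.22 ± 0.09. Of the partners of Ctsa, Glb1, beta-galactosidase, changed by −0.63 ± 0.19 (limma adjusted p = 0.0284), and did not pass without WT library 2 or 4 or DKO library 1, 3 or 4 (adjusted p from 0.0541 to 0.0834). Neu1, neuraminidase, changed by −0.43 ± 0.24 and did not pass (limma adjusted p = 0.180). It was called lower with median centring, voom on whole reads, the replicate block and a term for ribosomal RNA class (−0.75 in the last, adjusted p from 0.0121 to 0.0457). The difference between Glb1 and Neu1 was not tested. Cd74, the invariant chain cut by Ctss, changed by −0.52 ± 0.26 and did not pass (limma adjusted p = 0.142). Of the matrix substrates, the collagen gene Col1a1 had a change of −1.69 ± 0.34 and the elastin gene Eln rose by 0.69 ± 0.17 (limma adjusted p = 0.0103). Eln did not pass with median centring or voom on whole reads (adjusted p = 0.0524 and 0.0748).

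Of 14 further cathepsins and relatives, 5 were in the table and 4 were tested, and 0 passed in either direction (limma, with voom on whole reads too, and 0 at an unadjusted p under 0.05). Ctso, a widely made cysteine cathepsin, changed by 0.20 ± 0.16 (limma adjusted p = 0.355), and Ctsw, made by cytotoxic lymphocytes, by −0.07 ± 0.41 (limma adjusted p = 0.911). Ctsg, the neutrophil granule enzyme, named after its value was seen, was under the filter, with 28 reads in all WT libraries together and 11 in all DKO libraries. It was called lower when no filter was used.

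Markers of some other cells in the fat pad also differed between the groups, and their part in the cathepsin values was not tested. The counts below stand beside 16.1% of all tested genes that passed as lower and 22.7% as higher. Of the adipocyte markers, 9 of 9 rose, with a median change of 2.02, and their summed level was 7046 to 12170 CPM in WT and 17820 to 35330 CPM in DKO. Of 8 fibroblast markers 3 fell and 1, Dpp4, rose, although Dpp4 did not pass without WT library 1 or 4 or DKO library 2, 3 or 4, or with a term for ribosomal RNA class (adjusted p from 0.0524 to 0.0729). Their summed level was 7057 to 8927 CPM in WT and 3122 to 4324 CPM in DKO. Of 4 tested mast cell markers 2 fell. Of 6 tested T and NK cell markers 0 passed (limma), with 1 at an unadjusted p under 0.05 and 1 called higher by voom on whole reads. Of 15 epididymis markers 0 passed by either fit, with 0 at an unadjusted p under 0.05, but they supplied 1.49% of reads in WT library 2, 2.55% in DKO library 2 and 1.24% in DKO library 4. Of 5 red blood cell markers 2 rose, Hba-a1 and Hba-a2. They lost the call under 9 and 11 of the alternatives. Among these were the fits without any 1 of the 4 WT libraries or without DKO library 3 or 4 (limma adjusted p from 0.0655 to 0.117). All 5 were higher at an unadjusted p under 0.05, and voom on whole reads called 3 higher. Hbb-b1 and Hbb-bs gained a call under some alternatives. Red cell markers supplied 0.406% of reads in DKO library 3 and 1.19% in DKO library 4, and 0.0276% to 0.0826% in the others.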

How the data were processed

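RNA was extracted with TRIzol and RNeasy columns, and stranded polyA libraries were sequenced as 75-base single reads, per the labels' protocols. The submitters' processing notes name Trimmomatic, TopHat2, featureCounts, limma and the mouse build mm9, with versions not given in the sources used here. Deposited values are log2 CPM on the scale of limma's voom: undoing the log gave whole reads after removing an offset of 0.5 for 100% of values (within 0.01 read). Depth is the sum of these reads. Each group had 4 libraries, taken from their titles.

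Genes with a mean log2 CPM of at least 0 were tested (13797 of 16505) with limma 3.58.1 in R 4.3.3, group as the only term and a mean-variance trend, two-sided, with Benjamini-Hochberg adjustment at 0.05. Differences between members, and between members and macrophage markers, were tested by exact permutation over the libraries. The members and gene lists were chosen with earlier results of these data known. Named genes were all members, up to 4 tested genes per list with the smallest p, and 12 genes whatever their p (Ctso, Ctsw, Cst3, Cstb, Lgmn, Tfeb, Tfe3, Mitf, Neu1, Glb1, Psap and Cd74), and exceptions (Sort1, Mertk, Ctsg, the reference gene Cd68 and the neighbours of Ctsk and Ctss) are marked in the text. Transcript lengths and 3′ UTRs came from GENCODE M21 (GRCm38), and sequences from RefSeq GRCm38.p6. On simulated counts for 14307 genes with 200 changed, the fit found 85.9% of 2-fold and 100% of 4-fold changes, with 3 false calls. The simulation used a fixed dispersion of 0.03 and no difference in ribosomal RNA or epididymis content between libraries. In the data 38.8% of tested genes passed, so the simulated figures do not give the error rate of the fit on them.

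Alternatives covered the log offset, the filter, median centring, quantile normalization, the variance trend, array weights, voom on whole reads, the replicate block, ribosomal RNA class, the epididymis libraries, and each library left out.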

Additional observations from a re-analysis of the deposited data

Results flagged for a closer look

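In 4 of 132 groups of 4 libraries, over 66 named genes, a library lay far from the other 3 (Dixon's ratio of gap to range above its 95% critical value). Chance flags about 5% of such groups. Ctsz was at 9.65 log2 CPM in WT library 4, against 9.28 to 9.33 in the other WT libraries. Tpp1, a lysosomal peptidase, was at 8.64 in the same library, against 8.44 to 8.46. Col1a1, a collagen gene, was at 10.17 there, against 9.59 to 9.68. Cst12, an epididymal cystatin, was at 7.22 in WT library 2, against −3.03 to −1.44, and epididymis markers supplied 1.49% of the reads of that library.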

How the results depend on the processing

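Over the 19 alternatives for each member, 189 of 190 fits kept the call. The exception was Ctsc without the epididymis libraries, given in the report. The changes ranged from −4.01 to −3.53 for Ctsk, from −3.37 to −2.86 for Ctss, from −0.66 to −0.37 for Ctsc and from 0.38 to 0.66 for Ctsf. Over all tested genes 3137 rose and 2216 fell, but 2444 rose and 2825 fell with median centring, and 2478 and 2660 with quantile normalization. With the replicate block, 9 members fell and 1 rose, and 3232 genes rose and 2136 fell. Libraries of the same number did not deviate together in every pair (r = 0.36, 0.79, 0.24 and −0.36 for replicates 1 to 4), so the numbers were not taken as pairs. Pairs with unequal change numbered 34 by the exact permutation test and 35 by limma on the differences. With each library left out, limma gave 34 to 39, and the permutation test was not run.

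Relative to macrophage markers, Ctss turned to 0.14 with Cd68 alone as reference. Ctsb, Ctsd and Ctsl, which did not pass against the mean of the markers, passed as higher with either Adgre1 or Cd68 alone. With each library left out (limma), 6 or 7 of the 10 members passed, and Ctsz was the member that lost its call. The cause was not tested. Shares per length follow the length used. Without division by length, Ctsb supplied 35.3% in WT and 38.5% in DKO, and Ctsd 31.3% and 30.0%. With the first-listed transcript, a choice made after seeing the data, Ctsb supplied 17.3% and 20.0%, and Ctsd 37.7% in WT. Of genes named outside the family, Eln and Prtn3 lost the call under 2 alternatives each and Ctla2a and Glb1 under 5 each. Dpp4 lost it under 6, Hba-a1 under 9 and Hba-a2 under 11. In all, 40 fits of such genes lost a call and 23 gained one. For Eln the 2 were median centring and voom (adjusted p = 0.0524 and 0.0748 with limma).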

Other observations

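Of 6 tested granule serine proteases listed with Ctsc, 4 were lower in DKO and 1 higher, beside 16.1% and 22.7% of all tested genes. Of the lower genes, 3 are made by mast cells. Whether Ctsc activates each of the 6 was not tested. The mast cell chymase Mcpt4 had a change of −3.02, the chymase Cma1 of −2.88 and the tryptase Tpsb2 of −2.76 on the log2 CPM scale (limma). Prtn3, a neutrophil protease, rose by 2.27 ± 0.55 (SE; limma adjusted p = 0.0103), on 23 reads in all WT libraries together, and it lost the call with quantile normalization and with voom (limma adjusted p = 0.0696 and 0.0785). The mast cell markers Cpa3 and Fcer1a, 2 of 4 tested, were also lower. The other two, Kit and Hdc, changed by 0.20 and 0.76 and did not pass (limma adjusted p = 0.376 and 0.184), and Hdc was called higher with array weights (1.12, adjusted p = 0.0397).

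The genes around the adjacent Ctsk and Ctss had much smaller changes. In RefSeq order, 4 of the 6 nearest flanking genes are rows of the table, and they were looked at for their position. Arnt, which lies next to Ctsk, rose by 0.32 ± 0.10 (SE; limma adjusted p = 0.0296), and Setdb1 changed by −0.15 and did not pass (limma adjusted p = 0.299). On the side of Ctss, Golph3l had a change of −0.60 ± 0.12 (limma adjusted p = 0.00386) and Ensa changed by −0.09 and did not pass (limma adjusted p = 0.521).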
